A study of Mus musculus with 4 samples.

Results

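Aquaporins are membrane channels through which water, and for some members glycerol or other small solutes, crosses the cell. The family members compared here were the rows of the deposited expression table whose gene symbol was *Aqp1*, *Aqp2*, *Aqp3*, *Aqp4*, *Aqp5*, *Aqp6*, *Aqp7*, *Aqp8*, *Aqp9* or *Aqp11*, which gave 10 of the 23997 genes in the table. The family was selected on its FPKM in the sorted populations, with values of these data already seen, so the levels below are a description and not a test. The RNA-Seq experiment asked how the transcriptome of Lgr5+ progenitors differs from that of Lgr6+ progenitors in the newborn mouse cochlea. Both populations were EGFP+ cells sorted by flow cytometry at postnatal day 3, from Lgr5-EGFP-IRES-CreERT2 mice and from Lgr6-EGFP-IRES-CreERT2 mice, and the labels give the strain as C57BL/6. In these mice EGFP reports the activity of the *Lgr5* or the *Lgr6* locus. In the neonatal cochlea Lgr5 marks inner pillar cells, inner phalangeal cells, Deiters' cells of the outermost row and the lateral greater epithelial ridge, and Lgr6 marks inner pillar cells alone. Replicate libraries came from fractions of the same RNA rather than from separate sorts. The labels list 2 libraries per population, 4 in all, but the table holds 1 combined FPKM, a fragment count corrected for transcript length and for sequencing depth, for each gene in each population. The spread between replicates is therefore not known, and no difference below has a replicate check or a test.

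Aquaporins are classed by what they let through. *Aqp1*, *Aqp2*, *Aqp4* and *Aqp5* are water channels, *Aqp6* and *Aqp8* belong to the same branch but also pass anions or ammonia and hydrogen peroxide, *Aqp3*, *Aqp7* and *Aqp9* are aquaglyceroporins, and *Aqp11* is an unorthodox member of the endoplasmic reticulum. In the cochlea, where the potassium-rich endolymph is separated from perilymph by an epithelium, *Aqp4* is known from supporting cells, *Aqp5* from the outer sulcus and *Aqp1* from fibrocytes of the lateral wall. *Aqp1* is also a channel of red blood cells and of capillary endothelium.

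Nearly all aquaporin FPKM came from *Aqp11*, *Aqp5* and *Aqp1*. *Aqp11* stood at nearly the same level in the sorted populations, *Aqp5* was present in Lgr5+ cells and listed at 0 in Lgr6+ cells, and *Aqp1* was higher in Lgr6+ cells. These 3 members met the minimum used here for a gene to be kept, an FPKM of 1 or more in either population, as did 13436 genes in all. The other 7 members did not. Of these, 4 were listed at 0 in both populations, as were 31.6% of all genes in the table, and 3 had values between 0 and 1. The member nearest above the minimum was *Aqp1* and the nearest below it was *Aqp7*.

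The stretches of DNA before the start sites of the leading members differed in base composition, and 4 are printed because *Aqp11*, *Aqp5* and *Aqp1* carried nearly all of the signal while *Aqp2*, the neighbour of *Aqp5* on chromosome 15, was listed at 0. Each is the 60 bases before the annotated start in RefSeq on the GRCm38.p6 assembly, written 5′ to 3′ on the strand of the gene, with CpG dinucleotides and the motif TATAA in capitals. The windows are chr7:97738248-97738307 on the minus strand for *Aqp11*, and chr15:99590968-99591027 for *Aqp5*, chr15:99578996-99579055 for *Aqp2* and chr6:55336239-55336298 for *Aqp1* on the plus strand.
Aqp11: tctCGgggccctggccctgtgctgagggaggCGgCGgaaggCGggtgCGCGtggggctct
Aqp5: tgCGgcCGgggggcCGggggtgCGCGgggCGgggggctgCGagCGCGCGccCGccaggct
Aqp2: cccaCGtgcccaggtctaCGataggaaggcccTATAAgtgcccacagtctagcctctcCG
Aqp1: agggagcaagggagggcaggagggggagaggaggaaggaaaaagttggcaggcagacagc
These 60 bases held 11 CpG in *Aqp5*, 6 in *Aqp11*, 3 in *Aqp2* and 0 in *Aqp1*.

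Over the 250 bases before the start, *Aqp5* held 38 CpG and *Aqp11* held 23, against a median of 6 over 32851 promoter windows of the same length. The count of *Aqp5* was above that of 98.1% of these windows and the count of *Aqp11* above that of 86.7%. *Aqp1*, the third member that was kept, held 5 CpG. *Aqp3* held 14 and *Aqp2* held 8 although both genes were listed at 0, while *Aqp8* held 5, *Aqp6* 3, *Aqp9* 1 and *Aqp7* 0, so CpG content did not order the members by level. The window of *Aqp6* lies at another start than that of the deposited table. In the 60-base stretch, searched on both strands, TATAA was found in 2 of the 9 members with a window, *Aqp2* and *Aqp3*, and in 7.24% of all windows. The GC box GGGCGG was found in 1 member, *Aqp5*, and in 18.6% of all windows, and CCAAT in 0 members and in 10.8% of all windows. In *Aqp5* the GC box shares bases with the CpG printed in capitals.

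*Aqp11*, whose product resides in the endoplasmic reticulum, was the highest aquaporin gene in both populations. It lies on chromosome 7 from 97726379 to 97738247, in the GRCm38 coordinates of the deposited table counted from 1. With 42.1 FPKM in the Lgr5+ and 40.5 in the Lgr6+ population it was level, which placed it above 90.6% and 90.5% of the 23997 genes. The log2 change, taken throughout on log2(FPKM + 1) as Lgr6+ minus Lgr5+, was -0.06, and it turned to 0.20 when each population was scaled to the same sum. The median over all kept genes was 0.03 on the same scale and 0.28 after that scaling, so *Aqp11* lay 0.09 and 0.08 below it. *Clns1a*, the nearest gene of the table at 5585 bases from *Aqp11*, had 26.1 and 24.98.

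**Figure D1:**
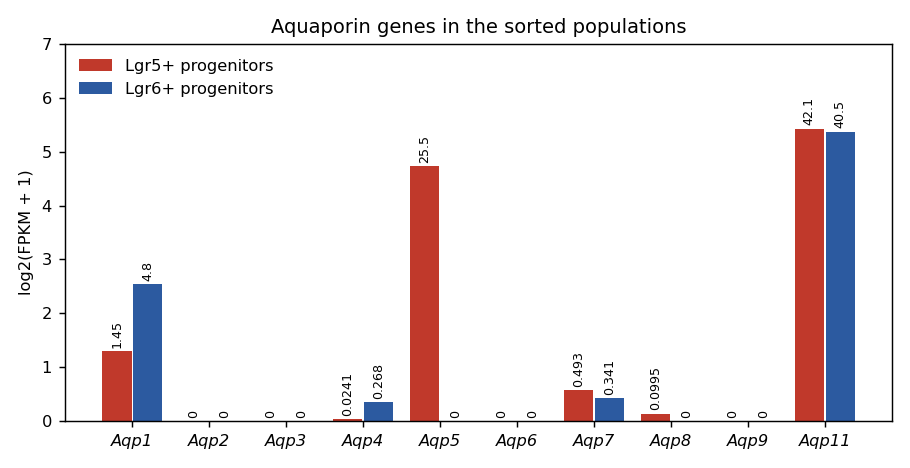
Bars give log2(FPKM + 1) of the 10 aquaporin genes in Lgr5+ cells (red) and Lgr6+ cells (blue), with the FPKM written above each bar; each bar is 1 combined value with no error. *Aqp11* is level in the populations at 42.1 and 40.5, *Aqp5* has a bar of 25.5 in Lgr5+ cells and none in Lgr6+ cells, and *Aqp1* goes from 1.45 to 4.80.

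*Aqp5*, the water channel of salivary, lacrimal and airway glands, differed most. It lies on chromosome 15 from 99591028 to 99594829 and had an FPKM of 25.5 in Lgr5+ cells, above 85.6% of all genes, and was listed at 0 in Lgr6+ cells. No ratio of FPKM is given against a value of 0. The log2 change was -4.73, a size set by the added 1, since it was -8.00 with an added 0.1. A listed 0 can be a failed estimate in such a table. Of 80 ribosomal protein genes 3 were listed at 0, each in both populations, and these were *Rpl10l*, *Rpl39l* and *Rpl3l*, paralogs of restricted expression. Whether the 0 of *Aqp5* in Lgr6+ cells is a failed estimate was not tested.

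*Aqp5* stands between *Aqp2*, the vasopressin-regulated channel of the kidney collecting duct, and *Aqp6*, a vesicle channel of the kidney. *Aqp2* lies on chromosome 15 from 99579056 to 99584545 and *Aqp6* from 99601400 to 99605477. The gap to *Aqp5* is 6482 bases on the side of *Aqp2* and 6570 bases on the side of *Aqp6*. Both neighbours were listed at 0 in both populations, so the signal in Lgr5+ cells was restricted to the middle gene of the 3. No other gene of the table overlaps *Aqp5*, and *Racgap1*, the next gene beyond *Aqp6*, had 6.77 in Lgr5+ cells and 3.52 in Lgr6+ cells.

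**Figure D2:**
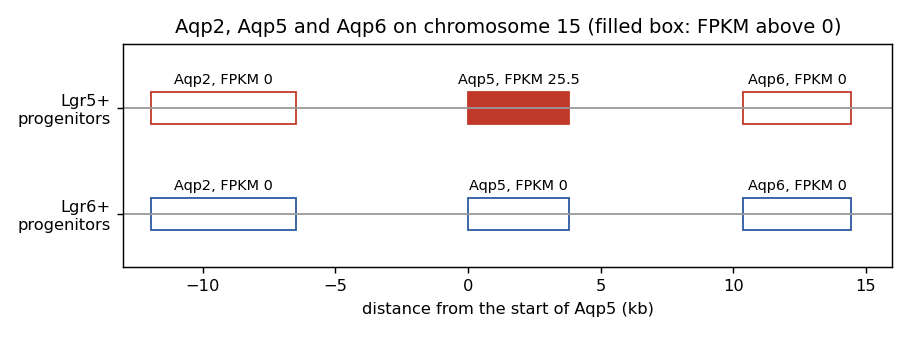
Boxes show the extent of *Aqp2*, *Aqp5* and *Aqp6* by distance in kb from the start of *Aqp5*, in Lgr5+ cells above and Lgr6+ cells below, with each FPKM written over its box; a filled box has an FPKM above 0. The only filled box is *Aqp5* in Lgr5+ cells at 25.5.

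*Aqp1* was the only member kept with a higher value in Lgr6+ cells. It lies on chromosome 6 from 55336299 to 55348555, and went from 1.45 to 4.80 FPKM, a ratio of 3.31. The log2 change was 1.24, and 0.97 after quantile normalization. Both values were modest, above 52.6% and 61.2% of all genes. *Fam188b*, 16076 bases away, was also higher in Lgr6+ cells, with 0.903 and 9.89.

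The remaining members were low or absent. *Aqp4*, on chromosome 18 from 15389394 to 15403684, had 0.0241 in Lgr5+ cells and 0.268 in Lgr6+ cells. *Aqp7*, the glycerol channel of fat cells, on chromosome 4 from 41033074 to 41048136, had 0.493 and 0.341. *Aqp8*, on chromosome 7 from 123462294 to 123468003, had 0.0995 in Lgr5+ cells and was listed at 0 in Lgr6+ cells. *Aqp3*, on chromosome 4 from 41092724 to 41098183, and *Aqp9*, the glycerol channel of the liver, on chromosome 9 from 71110659 to 71163289, were listed at 0 in both populations. None of the aquaglyceroporins reached an FPKM of 1. The family members outside the list were no higher, with 0.0704 and 0.144 for *Mip*, the lens channel known as aquaporin 0, and 0 in both populations for *Aqp12*.

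How much sequence stands behind such low values can be read from their steps, because fragments are counted whole. Over 7864 genes with 1 annotated protein-coding transcript, the product of FPKM and transcript length in kilobases was taken, after 200 bases had been subtracted from the length. In Lgr5+ cells 95 products lay within 2% of 0.128, against 7 just beside that value over an equal width, and in Lgr6+ cells 39 lay within 2% of 0.0399, against 6. If a step is 1 fragment, the combined Lgr6+ value was 3.20 times as deep as the Lgr5+ value. It is not known how the libraries were combined, so a step may be less than 1 fragment.

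On this scale *Aqp8* in Lgr5+ cells was 1.00 step and *Aqp4* in Lgr5+ cells was 0.93 step for its longest transcript and 0 for its shortest. *Aqp4* in Lgr6+ cells was about 33 steps for its longest transcript and 4 for its shortest. *Aqp7* was about 9 steps in Lgr5+ cells and 20 in Lgr6+ cells, more steps but a lower FPKM in the latter. *Aqp1* was about 28 steps in Lgr5+ cells and 292 in Lgr6+ cells. *Aqp5* was between 235 and 270 steps in Lgr5+ cells, depending on the transcript, and the same FPKM would have been about 864 steps in Lgr6+ cells, where it was listed at 0. The *Aqp1* FPKM of Lgr5+ cells would have been about 88 steps in Lgr6+ cells, where 292 were found.

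**Figure D3:**
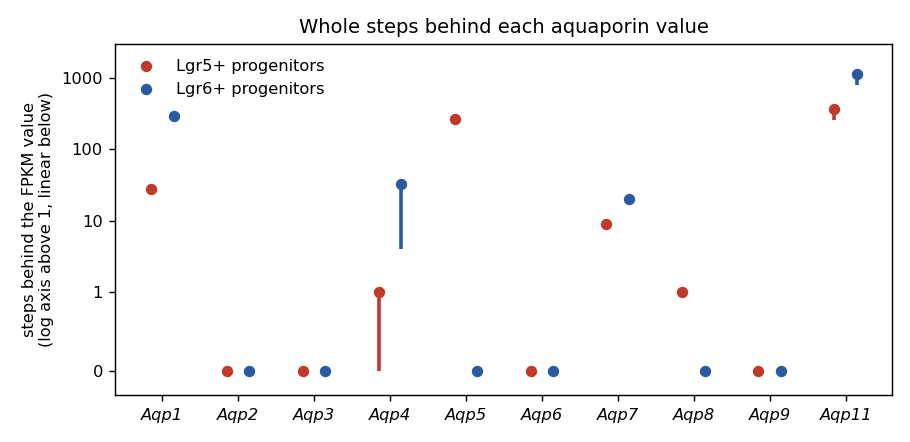
Points give the steps behind each aquaporin FPKM in Lgr5+ cells (red) and Lgr6+ cells (blue) for the longest annotated transcript, and lines reach to the value for the shortest; the axis is logarithmic above 1 and linear below. The points of *Aqp8* and *Aqp4* sit at 1 step in Lgr5+ cells, and *Aqp5* is at 270 steps in Lgr5+ cells and 0 in Lgr6+ cells.

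Summed over the 10 members, aquaporin FPKM was 69.6 in Lgr5+ cells and 45.9 in Lgr6+ cells. The sum over all genes was itself 1.20 times as high in Lgr5+ cells. *Aqp11* made up 60.4% of the aquaporin sum in Lgr5+ cells and 88.2% in Lgr6+ cells. *Aqp5* was 36.6% of the Lgr5+ sum and *Aqp1* was 2.08% of it, while *Aqp1* was 10.5% of the Lgr6+ sum. The order of the levels was thus *Aqp11*, *Aqp5*, *Aqp1*, *Aqp7*, *Aqp8* and *Aqp4* in Lgr5+ cells and *Aqp11*, *Aqp1*, *Aqp7* and *Aqp4* in Lgr6+ cells. Without replicates it is not known which neighbours in that order differ beyond their spread.

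A kept gene was counted when its values lay 1.5-fold or more apart after 1 was added to each FPKM. By that count 1 member, *Aqp5*, was higher in Lgr5+ cells, beside 23.3% of all kept genes, and 1 member, *Aqp1*, was higher in Lgr6+ cells, beside 28.5%. Differences of this size were therefore common in the table. Of all kept genes counted, 54.96% were higher in Lgr6+ cells, and 69.7% were when each population was scaled to the same sum. *Aqp5* and *Aqp1* were again the members counted, in the same directions, under 6 other settings. The shares of all genes tested that were higher in the Lgr5+ and in the Lgr6+ population were 16.8% and 38.7% after scaling to the same sum, 26.5% and 24.7% after quantile normalization, 23.4% and 28.4% after upper quartile scaling, 25.6% and 31.3% with an added 0.1, 13.5% and 17.4% with no minimum, and 11.7% and 18.2% at 2-fold. *Aqp5* was alone at a minimum of 5, beside 24.1%, with *Aqp1* left out and 24.1% of genes higher in the Lgr6+ population. *Aqp1* was alone when both populations had to reach 1, beside 21.4%, and when nothing was added, beside 28.9%, with 22.5% and 26.1% of genes higher in the Lgr5+ population.

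The median log2 change over the 10 members was 0, a value set by the 4 members listed at 0 in both populations.

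**Figure D4:**
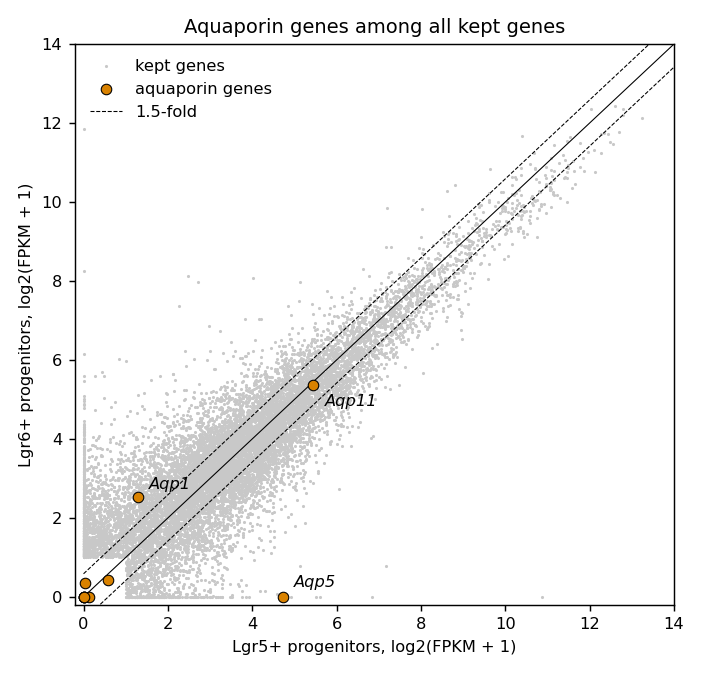
Each grey point is a kept gene by its log2(FPKM + 1) in Lgr5+ cells (x axis) and Lgr6+ cells (y axis), orange points are the 10 aquaporin genes, the solid line marks equal values and dashed lines 1.5-fold. *Aqp11* lies on the line of equal values, *Aqp1* above the upper dashed line and *Aqp5* on the x axis, where Lgr6+ cells are listed at 0.

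Few genes shared the pattern of *Aqp5*. By distance over the 2 log2 values, the nearest kept genes were *Tnnt2* at 0.10, with 27.3 and 0, *I730030J21Rik* at 0.16, with 23.04 and 0.0515, and *Scg2* at 0.19, with 29.3 and 0. Only 4 kept genes lay within 0.5 of *Aqp5*, against 322 within 0.5 of *Aqp1*. The nearest to *Aqp1* were *Rmi1*, *Atg16l2* and *Atad3aos*, at distances of 0.03, 0.06 and 0.06. A distance over 2 values says only that the levels were alike.

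The sorted populations were checked by their own genes. *Lgr5* had 9.65 FPKM in the population labelled Lgr5+ and 24.99 in that labelled Lgr6+, and *Lgr6* had 2.06 and 2.90, so neither gene was higher in the population labelled Lgr5+. *Sox2*, the SC marker, had 139.6 and 54.8. *Pou4f3*, the HC marker Brn3.1, had 31.01 and 48.96, and all 10 HC markers examined, *Cib2* and *Pvalb* the highest, were above an FPKM of 1 in both populations. In bulk RNA, fewer cells of a type and less RNA per cell cannot be told apart.

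Markers of other cell types also differed between the populations that differed in *Aqp5* and *Aqp1*. Of all kept genes 23.3% were higher in Lgr5+ cells and 28.5% in Lgr6+ cells. Of 6 markers of lateral nonsensory epithelium, the outer sulcus and its neighbours, 5 were at least 1.5-fold higher in Lgr5+ cells, as *Aqp5* was, under each scaling tried. The highest was *Bmp4*, with 35.7 in Lgr5+ cells and 3.96 in Lgr6+ cells. The other one, *Epyc*, went the opposite way, from 29.3 to 141, and carried the summed level from 94.5 to 150.6. None of the 6 was at 0 in Lgr6+ cells. Their part in the *Aqp5* difference was not tested.

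Of 10 endothelial markers, 8 were higher in Lgr6+ cells, as *Aqp1* was, and 1 was lower, beside 28.5% and 23.3% of all kept genes. Their summed FPKM was 19.8 in Lgr5+ cells and 104.1 in Lgr6+ cells. *Emcn* had 5.93 and 29.1, *Cldn5* had 2.95 and 27.3, and *Kdr* was listed at 0 in Lgr5+ cells. Of 10 fibrocyte and mesenchyme markers 5 were higher and 1 lower in Lgr6+ cells, with sums of 329.6 and 608.9. *Otos*, a fibrocyte gene, had 5.60 and 248, and *Lum* had 179 and 101. Of 7 erythroid markers 3, all globins, were higher in Lgr5+ cells, and the sums were 487.8 and 107.3. *Alas2*, the heme synthesis enzyme of red cells, had 4.36 and 6.64, and counted as higher in Lgr6+ cells after scaling to the same sum. The defining erythroid gene *Rhag* was listed at 0 in both populations and *Slc4a1* in Lgr6+ cells, while *Hbb-bs* had 333 and 84.02 and *Hbb-bt* had 115 and 15.96. The part of these cells in the *Aqp1* difference was not tested.

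The other marker lists are given by their counts at 1.5-fold. Over all kept genes 23.3% were higher in Lgr5+ cells and 28.5% in Lgr6+ cells. Of 10 SC markers, with *Hes5* and *Gjb2* the highest, 4 were higher in Lgr5+ cells and 1 in Lgr6+ cells. Of 10 HC markers 6 were higher in Lgr6+ cells and 0 in Lgr5+ cells. Of 10 macrophage markers, led by *C1qb* and *Fcer1g*, 8 were higher in Lgr6+ cells, with sums of 3.88 and 263.5. *C1qb*, *C1qc*, *Tyrobp*, *Csf1r*, *Aif1* and *Ptprc* were listed at 0 in Lgr5+ cells. *Ptprc* was not kept, with only 0.00814 in Lgr6+ cells. Of 8 Schwann cell and glial markers, led by *Fabp7* and *Mbp*, 3 were higher in Lgr6+ cells. *Gfap* was listed at 0 in both populations, and *Cdh19* was listed at 0 in Lgr5+ cells and had 0.147 in Lgr6+ cells. Of 8 neuronal markers, led by *Nefm* and *Snap25*, 2 were higher in Lgr5+ cells and 3 in Lgr6+ cells, and *Prph* was listed at 0 in Lgr5+ cells. The neuronal counts were 3 and 1 after quantile normalization, where the shares of all genes tested were 26.5% and 24.7%. They were 2 and 2 after upper quartile scaling, beside 23.4% and 28.4%. Of 7 melanocyte and strial markers, led by *Kcnq1* and *Pmel*, 2 were higher in Lgr6+ cells, while *Mlana* and *Kcne1* were listed at 0 in both populations. *Dct*, *Kcnq1* and *Esrrb* were listed at 0 in Lgr5+ cells, with 0.681, 4.83 and 0.111 in Lgr6+ cells.

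*Aqp4* is held at the membrane by the dystrophin complex. All 11 genes of a list of this anchoring and of other *Aqp4* partners were kept, although *Aqp4* was not. Of these, *Trpv4*, an osmosensitive cation channel, had 32.2 in Lgr5+ cells against 9.88 in Lgr6+ cells, and *Agrn* had 58.9 against 35.1. *Dtna*, a dystrobrevin, had 43.2 against 78.5. *Dtnb*, another dystrobrevin of the list, had 28.1 against 21.5 and was not past 1.5-fold. The count was 2 lower and 1 higher in Lgr6+ cells, beside 23.3% and 28.5% of all kept genes. It became 1 and 2 when the populations were scaled to the same sum, beside 16.8% and 38.7%. After quantile normalization the count was 3 and 1, beside 26.5% and 24.7%. *Kcnj10*, the potassium channel found beside *Aqp4* in glia, had 2.83 and 2.50. The median of the list was -0.13, against 0.03 over all kept genes.

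*Aqp2* reaches the membrane when vasopressin acts through cyclic AMP. The receptor genes *Avpr2* and *Avpr1a* were listed at 0 in both populations, as *Aqp2* was. Of the 16 genes of the list 13 were kept, with 4 at least 1.5-fold higher in Lgr5+ cells and 4 in Lgr6+ cells. The shares of all kept genes were 23.3% and 28.5%. The counts were 1 and 5 after scaling to the same sum, where the shares were 16.8% and 38.7%. *Mal*, a raft protein of apical transport and of myelin, was listed at 0 in Lgr5+ cells and had 17.0 in Lgr6+ cells. *Vta1* had 54.3 and 95.0 and the kinase subunit *Prkacb* had 12.3 and 21.7. *Snap23*, a membrane fusion protein, had 15.3 and 7.50, and the kinase subunits *Prkaca* and *Prkar2a* had 36.9 and 21.7, and 32.3 and 18.9. The median of the list was -0.07.

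Among 10 genes of the osmotic stress response, 5 were higher in Lgr5+ cells and 1 was higher in Lgr6+ cells. The shares of all kept genes were 23.3% and 28.5%. The counts were 4 and 4 after scaling to the same sum, where the shares were 16.8% and 38.7%. *Akr1b3*, which makes the osmolyte sorbitol, had 14.8 and 3.31, a log2 change of -1.88. The kinases *Wnk4* and *Stk39*, which regulate chloride cotransport, had 6.60 and 2.83, and 63.0 and 33.0. *Nfat5*, the transcription factor of the hypertonic response, had 20.5 and 33.0. The median of the list was -0.29.

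Of 9 genes of cell volume regulation, 3 were higher in Lgr6+ cells and 1 in Lgr5+ cells, beside 28.5% and 23.3% of all kept genes. The counts were 5 and 0 after scaling to the same sum, beside 38.7% and 16.8%, and 2 and 1 after quantile normalization, beside 24.7% and 26.5%. The volume-regulated anion channel subunit *Lrrc8d* had 4.68 and 12.4, and *Lrrc8c* was listed at 0 in Lgr5+ cells and had 1.13 in Lgr6+ cells. The potassium-chloride cotransporter *Slc12a4* had 9.25 and 5.28. The median of the list was 0.48, and 0.10 after quantile normalization.

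For the glycerol that aquaglyceroporins carry, 11 genes of its metabolism were examined and 9 were kept. *Gyk*, glycerol kinase, had 3.79 in Lgr5+ cells and 0.0851 in Lgr6+ cells, a log2 change of -2.14 and the largest of the list, and *Gpd1l* had 5.97 and 1.66. Higher in Lgr6+ cells were *Dgat2*, which makes triglyceride, with 0.401 and 2.47, the lipid droplet gene *Plin2*, with 2.73 and 7.37, and *Gpd2*, with 3.97 and 6.94. The list thus had 2 genes higher in Lgr5+ cells and 3 in Lgr6+ cells, beside 23.3% and 28.5% of all kept genes. Its median was 0.08. The counts were 2 and 4 after scaling to the same sum, beside 16.8% and 38.7%. After quantile normalization they were 3 and 2, beside 26.5% and 24.7%, with a median of -0.11.

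**Figure D5:**
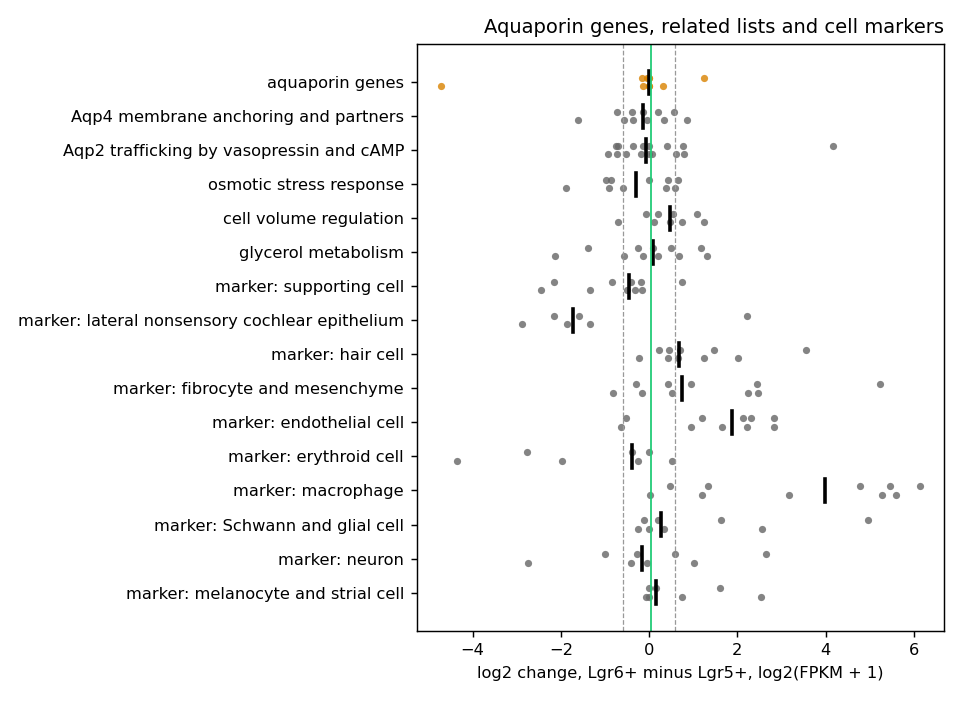
Points give the log2 change of each gene, Lgr6+ minus Lgr5+ cells on the log2(FPKM + 1) scale, for the aquaporin genes (orange) and for each list of related or marker genes (grey). Black bars are list medians, the green line is the median of all kept genes at 0.03 and dashed lines mark 1.5-fold; endothelial and macrophage markers have medians of 1.88 and 3.98, and the aquaporin median is 0.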

How the data were processed

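The methods state that the RNA of each sorted population was split into 3 fractions as replicates, whereas the labels list 2 libraries per population. Libraries were made by the authors with a low-input cDNA kit, reads were trimmed with Trimmomatic, mapped with TopHat and quantified with Cufflinks, with no versions given in the sources used here. FPKM values were deposited by the authors as 1 combined value per population, together with their own fold change, *p*-value and *q*-value columns, which were not used. The methods name mm9 and the submitters' processing notes name mm10. Of 22500 gene symbols matched in RefSeq, 98.8% had deposited intervals overlapping the gene in GRCm38, whose coordinates are given.

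Genes were compared on log2(FPKM + 1) among those reaching an FPKM of 1 in either population. No test was possible, and the limma fit foreseen for values per library was not run. Alternatives were a pseudocount of 0.1 or none, other filters, quantile and upper quartile normalization, scaling each population to the same sum, as in TPM, and a 2-fold threshold. The text names every member, genes for checking the sort, the genes with the largest change past 1.5-fold in each related list, the highest of each marker list, and the genes nearest to *Aqp5* and *Aqp1*. Neighbouring genes on the chromosome, the genes listed at 0, *Alas2*, *Kcnj10* and *Dtnb* were named after their values were seen. Some genes of the lists are counted but not reported by name here. Members and lists were chosen with earlier results of these data known. Transcript lengths are from GENCODE M1 and promoter sequences from RefSeq GRCm38.p6, which held 9 of the 10 members. The fold count and the step search were tested on simulated data. Python 3.11.15, numpy 2.4.6, pandas 2.3.3 and matplotlib 3.10.9 were used. No counts were in the table, so no counting intervals are given.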

Additional observations from a re-analysis of the deposited data

How the results depend on the processing

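The single member higher in Lgr5+ cells, *Aqp5*, was no longer counted (0 members) when both populations had to reach an FPKM of 1 or when no pseudocount was added, since both settings drop genes at 0. The single member higher in Lgr6+ cells, *Aqp1*, was no longer counted (0 members) at a minimum FPKM of 5, which *Aqp1* does not reach. Without a pseudocount the median log2 change, then over members above 0 in both populations, was 0.83 in place of 0. Over all kept genes, a 2-fold threshold left 1575 genes higher in Lgr5+ cells and 2443 in Lgr6+ cells, in place of 3136 and 3826. Of 44 recalculated log2 changes of single members, 41 stayed on the same side of the threshold and 3 passed it, *Aqp4* with a pseudocount of 0.1 or none and *Aqp8* with 0.1. The 41 include the values of the 4 members listed at 0 in both populations. Those values are 0 in any of these settings and could not pass the threshold. No paired analysis was possible because the table holds 1 combined value per population, and for the same reason no replicate could be left out. *Aqp8* in Lgr5+ cells stood at 1 step, and *Aqp4* there at 0 or 1 step, depending on the transcript.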

Other observations

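An exact 0 beside a clear value was uncommon in the deposited table. Of 6514 genes that reached an FPKM of 10 in Lgr5+ cells, 13 were listed at 0 in Lgr6+ cells, and 4 of these were microRNA genes. Among the other 9, *Aqp5* had the third highest FPKM. In the opposite direction, 48 of 6696 genes that reached an FPKM of 10 in Lgr6+ cells were listed at 0 in Lgr5+ cells. By their symbols, 11 of these were microRNA or other small RNA genes and 37 were not. Of the 48 genes, 0 were aquaporin genes. The minimum of 10 was chosen after the values were seen.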
